A study of Mus musculus with 12 samples.

Results

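The genes of the mitochondrial genome were taken as all genes whose symbol starts with mt-, which gave 37 of the 54345 genes in the deposited table. They were 13 mRNA genes, 2 rRNA genes and 22 tRNA genes, and they were also all genes that the table places on chromosome MT. Their levels were compared in H9c2 cells, a line of heart-derived myoblasts, in 4 groups of 3 libraries each, made from cells lysed after 6 h. The groups were untreated cells (Unt), cells given doxorubicin (DOX), cells given doxorubicin together with dexrazoxane (D_DXZ), and cells given doxorubicin together with nanocatalysts of magnesium hexacyanoferrate (D_MgHCF). All cells carried the wild-type genotype per the labels, and all groups came from this single line. The labels give the organism as Mus musculus, whereas the study describes the line as rat, and reads were counted on the mouse genome, so that a level below is that of the reads that matched a mouse gene. The part of this mapping in the results was not tested. The labels do not say whether the 3 libraries of a group came from separate cultures, and the p-values therefore measure the spread between these libraries, which may be technical.

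The mitochondrial genome is a small circular DNA that encodes subunits of the respiratory chain and of ATP synthase, together with the rRNAs and tRNAs that translate them. Both of its strands are copied into long precursor RNAs by the polymerase POLRMT, helped by TFAM and TFB2M, and the tRNAs that lie between the other genes are cut out by dedicated nucleases, which frees the mRNAs and rRNAs. Most mitochondrial mRNAs and rRNAs then receive short poly(A) tails. Doxorubicin is an anthracycline that binds DNA and inhibits topoisomerase II, and heart cells are known for mitochondrial damage after it. Dexrazoxane is a clinical cardioprotectant that also acts on topoisomerase II and whose product binds iron.

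The libraries were made from RNA held on poly(T) beads, which keep RNA with a tail or a run of A. The sequences around the longest run of A are therefore shown for the rRNAs mt-Rnr1 and mt-Rnr2, of the small and the large mitochondrial ribosomal subunit, for mt-Co1, the core subunit of cytochrome c oxidase, and for mt-Cytb, the core subunit of complex III. They are 90 bases each from GENCODE M21 transcripts on GRCm38, plus strand, with each run of A of that length in capitals. The windows are chrM:662-751 in mt-Rnr1, chrM:1446-1535 in mt-Rnr2, chrM:6074-6163 in mt-Co1 and chrM:14145-14234 in mt-Cytb, the last 2 within the coding sequence.
mt-Rnr1: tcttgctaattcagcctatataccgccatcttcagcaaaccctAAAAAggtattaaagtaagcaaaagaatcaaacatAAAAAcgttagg
mt-Rnr2: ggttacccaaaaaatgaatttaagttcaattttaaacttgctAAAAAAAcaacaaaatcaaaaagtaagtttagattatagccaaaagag
mt-Co1: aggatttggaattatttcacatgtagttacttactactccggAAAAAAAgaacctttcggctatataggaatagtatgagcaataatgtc
mt-Cytb: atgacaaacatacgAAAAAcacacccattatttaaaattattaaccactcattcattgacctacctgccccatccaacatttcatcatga
The longest run of A was 5 bases in mt-Rnr1 and mt-Cytb and 7 bases in mt-Rnr2 and mt-Co1, while mt-Nd2 held the longest run of the 13 mRNA genes with 8 bases and mt-Nd6 the shortest with 3. These are mouse sequences, whereas the study describes the line as rat, so that the RNA of these cells need not hold the same runs. The part of such runs in the capture of these RNAs was not tested.

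The tRNA genes are 59 to 75 bases long, shorter than the 150-base reads. The sequences of 6 of them are shown, the first 4 because they are the tRNAs with the clearest differences described below. The last 2 are plus-strand tRNAs with reads in all 12 libraries and no called difference between DOX and Unt in the deposited FPKM. The anticodon is in capitals, and each sequence is given 5′ to 3′ on the strand of the tRNA. They lie at chrM:5089-5159, chrM:5192-5257, chrM:5260-5326 and chrM:15356-15422 on the minus strand and at chrM:11671-11741 and chrM:11546-11612 on the plus strand.
mt-Tn (asparagine): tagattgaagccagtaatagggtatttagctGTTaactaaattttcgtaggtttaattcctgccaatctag
mt-Tc (cysteine): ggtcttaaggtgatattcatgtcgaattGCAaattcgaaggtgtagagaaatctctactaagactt
mt-Ty (tyrosine): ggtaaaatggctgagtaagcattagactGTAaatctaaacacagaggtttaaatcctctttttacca
mt-Tp (proline): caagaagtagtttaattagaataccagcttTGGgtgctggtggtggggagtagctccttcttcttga
mt-Tl2 (leucine): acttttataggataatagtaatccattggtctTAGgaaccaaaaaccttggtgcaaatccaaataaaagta
mt-Th (histidine): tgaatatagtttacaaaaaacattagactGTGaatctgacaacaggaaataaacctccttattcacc

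Between 16626514 and 19365119 reads lay on genes in each library. Levels are given as FPKM, the fragments per kilobase of a gene divided by the size of the library. The library size that the FPKM imply was 1.32 to 1.38 times the summed gene reads in Unt and 1.26 to 1.43 times in D_MgHCF, but 0.647 to 0.784 times in DOX and 0.747 to 0.892 times in D_DXZ. Rescaling to TPM or to summed reads therefore moved the median gene, among genes with a mean FPKM of at least 1, on the log2 scale from 0.05 to -1.18 and -0.69 in DOX against Unt, and from -0.09 to 0.99 and 0.67 in D_MgHCF against DOX. In Unt, 4 of 8 myoblast markers had a mean FPKM of at least 1, the defining markers Myf5, Myod1 and Myog were at 0, and 1 of 7 cardiomyocyte, 2 of 5 fibroblast, 0 of 4 endothelial and 1 of 4 leukocyte markers reached this level. The part of other cell types in the results below was not tested.

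Both mitochondrial rRNAs were far higher in DOX than in Unt, and lay between these groups in D_MgHCF, while D_DXZ overlapped DOX. The FPKM of mt-Rnr1 (ENSMUSG00000064337, chromosome MT, 70 to 1024, plus strand) were 168, 162 and 179.6 in Unt and 5514, 7272 and 7253 in DOX. D_DXZ gave 4696, 6741 and 6597, and D_MgHCF 1449.5, 721 and 256. The Unt libraries were the lowest, the 3 D_MgHCF libraries lay above them and below all DOX and D_DXZ libraries, and DOX and D_DXZ overlapped. The FPKM of mt-Rnr2 (ENSMUSG00000064339, MT, 1094 to 2675, plus strand) were 112, 103 and 101.1 in Unt and 3226, 4485 and 4291 in DOX. The D_DXZ libraries had 2971, 4067 and 4160.4, and the D_MgHCF libraries 921, 569.7 and 209. The groups had the same order. The 3 D_MgHCF libraries were spread widely, with the highest rRNA level in replicate 1 and the lowest in replicate 3.

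**Figure D1:**
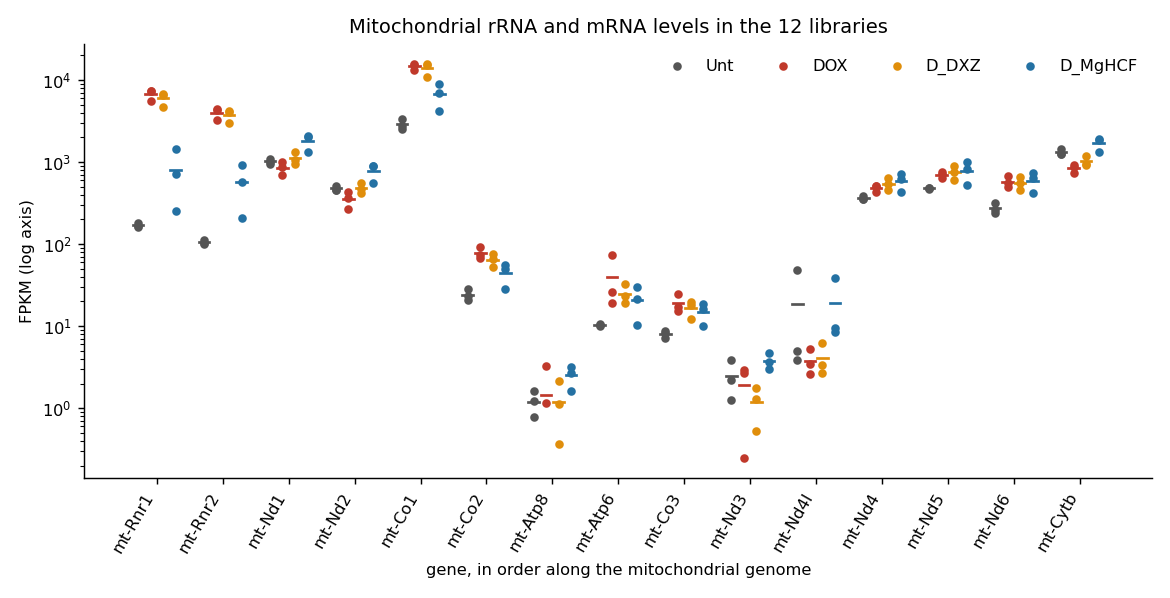
FPKM of the 2 rRNA and 13 mRNA genes in each of the 12 libraries (log axis, genes in order along the mitochondrial genome). Points are libraries, short lines are group means, and the DOX 3 value of mt-Atp8 is 0 and not drawn. The rRNAs of Unt lie at 101.1 to 179.6 and those of DOX at 3226 to 7272, while mt-Cytb lies at 1239.5 to 1452 in Unt and 742 to 932 in DOX.

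Expressed as means, mt-Rnr1 was at 169.8 ± 9.0 FPKM in Unt and 6680.0 ± 1009 in DOX (SD, n = 3), a ratio of 39.3. On the log2(FPKM + 1) scale, used for all fold changes here, the difference was 5.28 ± 0.52 (SE; adjusted p = 2.8e-05, limma with Benjamini-Hochberg adjustment over 25044 genes), and that of mt-Rnr2 was 5.22 ± 0.45 (adjusted p = 1.53e-05). In this comparison, 18.6% of the genes tested were called higher and 19.9% lower at an adjusted p under 0.05. D_DXZ differed from Unt to a like extent, by 5.12 ± 0.52 for mt-Rnr1 (adjusted p = 8.03e-05) and 5.12 ± 0.45 for mt-Rnr2 (adjusted p = 5.77e-05), where 15.9% of genes were called higher and 18.0% lower.

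D_MgHCF minus DOX was -3.36 ± 0.52 for mt-Rnr1 (adjusted p = 0.000385) and -3.05 ± 0.45 for mt-Rnr2 (adjusted p = 0.000275), in a comparison where 31.4% of all genes were called higher and 20.1% lower. Minus D_DXZ it was -3.20 ± 0.52 (adjusted p = 0.000626) and -2.94 ± 0.45 (adjusted p = 0.000413), beside 29.4% of genes higher and 19.0% lower. Against Unt it was still higher, by 1.92 ± 0.52 for mt-Rnr1 (adjusted p = 0.0158) and 2.17 ± 0.45 for mt-Rnr2 (adjusted p = 0.00404), beside 24.3% of genes higher and 15.7% lower. Without Unt replicate 2 or D_MgHCF replicate 2, the adjusted p of mt-Rnr1 in the last comparison was 0.0521 or 0.0524, and the call was also lost with only these 2 groups in the fit. In all of these comparisons the rRNAs kept their direction under TPM, summed reads and quantile scaling. Relative to the median gene, mt-Rnr1 stood 5.23 higher in DOX than in Unt in the deposited FPKM, 5.10 higher in TPM and 5.02 higher in summed reads. In bulk RNA, a change in the RNA of each cell and a change in which cells were present cannot be told apart.

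The ratio of rRNA reads to mRNA reads within the mitochondrial genome does not depend on how libraries were scaled. It was 0.0410, 0.0315 and 0.0384 in Unt, 0.413, 0.492 and 0.484 in DOX, 0.433, 0.430 and 0.445 in D_DXZ and 0.129, 0.0857 and 0.0490 in D_MgHCF. Unt did not overlap any other group, and D_MgHCF did not overlap DOX or D_DXZ. Over the 4 groups the ratio differed in an exact permutation test of all 369600 divisions of the libraries (p = 0.00026, adjusted p = 0.00727 over 28 tests of 4 such measures). The geometric mean was 12.6 times that of Unt in DOX, 11.9 times in D_DXZ and 2.22 times in D_MgHCF, while D_MgHCF was at 0.177 of DOX. With 3 libraries against 3, the two-sided exact p of a pair cannot go below 0.1, and this value was reached for each pair but D_DXZ against DOX, whose ratio was 0.945 (exact p = 0.4). The proportion of the 2 rRNAs to each other varied less, with a ratio of mt-Rnr1 to mt-Rnr2 FPKM from 1.49 to 1.78 in Unt and from 1.62 to 1.71 in DOX. It was from 1.58 to 1.66 in D_DXZ and from 1.22 to 1.57 in D_MgHCF, which lay below all DOX libraries.

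**Figure D2:**
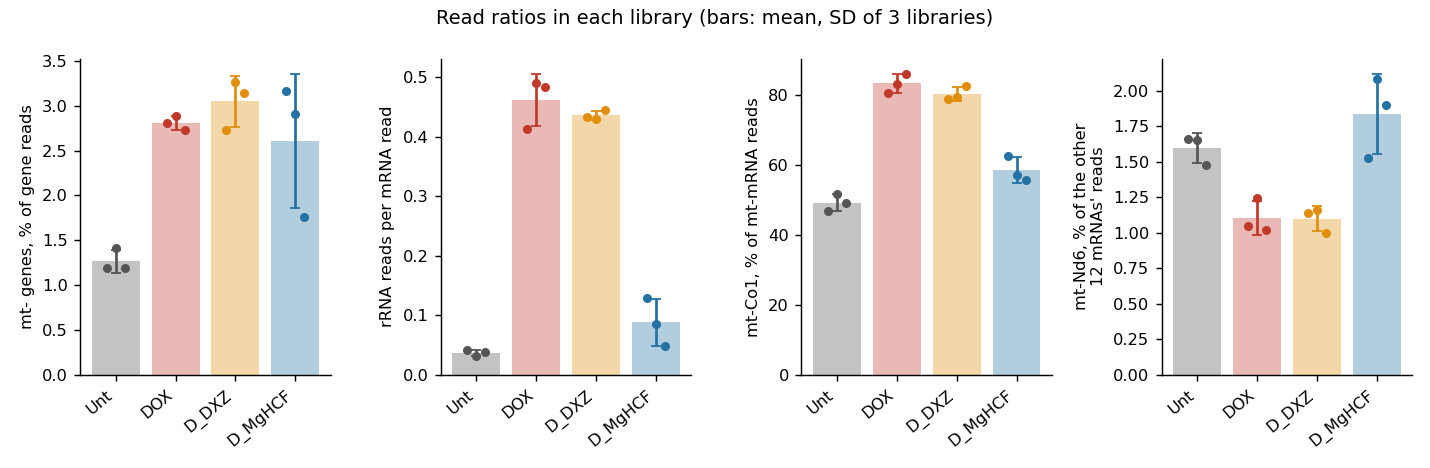
From left, the share of gene reads on the 37 mitochondrial genes (%), rRNA reads per mRNA read, the share of mt-Co1 in the reads of the 13 mRNAs (%), and mt-Nd6 reads as % of the reads of the other 12 mRNAs. Bars are group means, error bars SD and points the 3 libraries, and the second panel shows 0.0315 to 0.0410 in Unt against 0.413 to 0.492 in DOX and 0.0490 to 0.129 in D_MgHCF.

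The share of all gene reads that fell on the mitochondrial genes was 1.19, 1.41 and 1.19 in Unt, 2.80, 2.89 and 2.73 in DOX, 2.73, 3.27 and 3.15 in D_DXZ and 3.16, 2.90 and 1.76 in D_MgHCF, in percent, with 95% Wilson intervals no wider than 0.0168 percentage points, which cover counting error only. Every treated library lay above the 3 Unt libraries, and D_MgHCF replicate 3 lay apart from the other treated libraries. The 4 groups did not pass the test after adjustment over the 28 tests (exact permutation p = 0.0125, adjusted p = 0.0873), although DOX was at 2.23 times Unt, D_DXZ at 2.41 times and D_MgHCF at 2.00 times. Most of the 28 tests compare pairs, whose p cannot go below 0.1. Their inclusion raises the adjusted p of the tests over 4 groups, so that not passing does not show that the shares are alike. Of these reads, mRNAs took most. Their share of gene reads was 1.14, 1.36 and 1.14 in Unt, 1.97, 1.92 and 1.83 in DOX, 1.89, 2.27 and 2.16 in D_DXZ and 2.77, 2.66 and 1.66 in D_MgHCF, and that of the rRNAs was 0.0467, 0.0430 and 0.0438 in Unt, 0.813, 0.945 and 0.887 in DOX, 0.819, 0.975 and 0.962 in D_DXZ and 0.359, 0.228 and 0.0814 in D_MgHCF. The tRNAs took at most 0.0314% of gene reads in any library.

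Among the mRNAs, mt-Co1 took a larger share of the reads in DOX and D_DXZ than in Unt and D_MgHCF. The FPKM of mt-Co1 (ENSMUSG00000064351, MT, 5328 to 6872, plus strand) were 2497, 3389 and 2755 in Unt and 13119.9, 15419 and 15804 in DOX. Those of D_DXZ were 10816, 15399.7 and 15458, and those of D_MgHCF 8912, 6868 and 4245. Unt was lowest, D_MgHCF lay above it, and DOX and D_DXZ lay above both, with no overlap except that between DOX and D_DXZ. It was the gene with the most reads of all genes in every DOX, D_DXZ and D_MgHCF library and the second in every Unt library. The difference between DOX and Unt was 2.37 ± 0.74 (adjusted p = 0.026) and that between D_DXZ and Unt 2.26 ± 0.74 (adjusted p = 0.036), both with the same direction under TPM and summed reads but 0.00 under quantile normalization, which gives the top gene of each library the same value. The standard error of mt-Co1 was the largest of the rRNA and mRNA genes apart from mt-Nd4l, and with 1 library left out its adjusted p ranged from 0.0071 to 0.0958 for DOX against Unt. It was over 0.05 without any 1 of the Unt libraries, any 1 of the DOX libraries or D_DXZ replicate 3, and for D_DXZ against Unt it ranged from 0.0103 to 0.125. The D_MgHCF mean was 6675 ± 2339 FPKM (SD, n = 3), and neither its difference from Unt (1.16 ± 0.74, adjusted p = 0.235) nor that from DOX (-1.21 ± 0.74, adjusted p = 0.196) passed the threshold. These calls turn on the mean-variance trend of the fit, which set the standard error of this highest gene above the 0.275 that its own spread within groups gives. In a fit without the trend, added after the values were seen, the adjusted p was 6.71e-05 for DOX against Unt, 0.00685 for D_MgHCF against Unt, 0.00348 for D_MgHCF against DOX and 0.0063 for D_MgHCF against D_DXZ. The lower level of mt-Co1 in D_MgHCF than in DOX depended on the scaling, with log2 fold changes of 0.01 under TPM, -0.24 under summed reads and 0.51 under quantile normalization. Against D_DXZ these were -0.06, -0.32 and 0.51, and against Unt they were 1.01, 1.18 and 0.51.

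The share of mt-Co1 in the reads of the 13 mRNAs was chosen for description after its values were seen, and no test was run on it. It was 46.8, 51.9 and 49.3 in Unt, 80.7, 83.4 and 86.3 in DOX, 78.9, 79.5 and 82.6 in D_DXZ and 62.7, 57.2 and 55.9 in D_MgHCF, in percent. The 12 libraries thus fell into a range of 46.8 to 51.9% in Unt, 55.9 to 62.7% in D_MgHCF and 78.9 to 86.3% in DOX and D_DXZ. The 95% Wilson intervals of these shares were at most 0.430 percentage points wide.

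Of the 13 mRNAs, 5 were called higher and 0 lower in DOX against Unt, beside 18.6% and 19.9% of all genes, with a median log2 fold change of 0.39. Under TPM 1 was called higher and 7 lower, beside 1111 and 10227 of the 25044 genes, with a median of -0.97. Under summed reads 2 were higher and 4 lower, beside 2075 and 8303 genes, with a median of -0.49. Relative to the median gene, the 13 mRNAs had a median of 0.34, 0.20 and 0.20 under the deposited FPKM, TPM and summed reads, and 7, 8 and 8 of them lay above that gene. The 5 higher mRNAs were mt-Co1, mt-Co2, mt-Atp6, mt-Co3 and mt-Nd6, of which mt-Co1 kept the call under TPM and mt-Co1 and mt-Co2 under summed reads. At an unadjusted p under 0.05, 6 of 13 passed, beside 10940 of the 25044 genes.

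**Figure D3:**
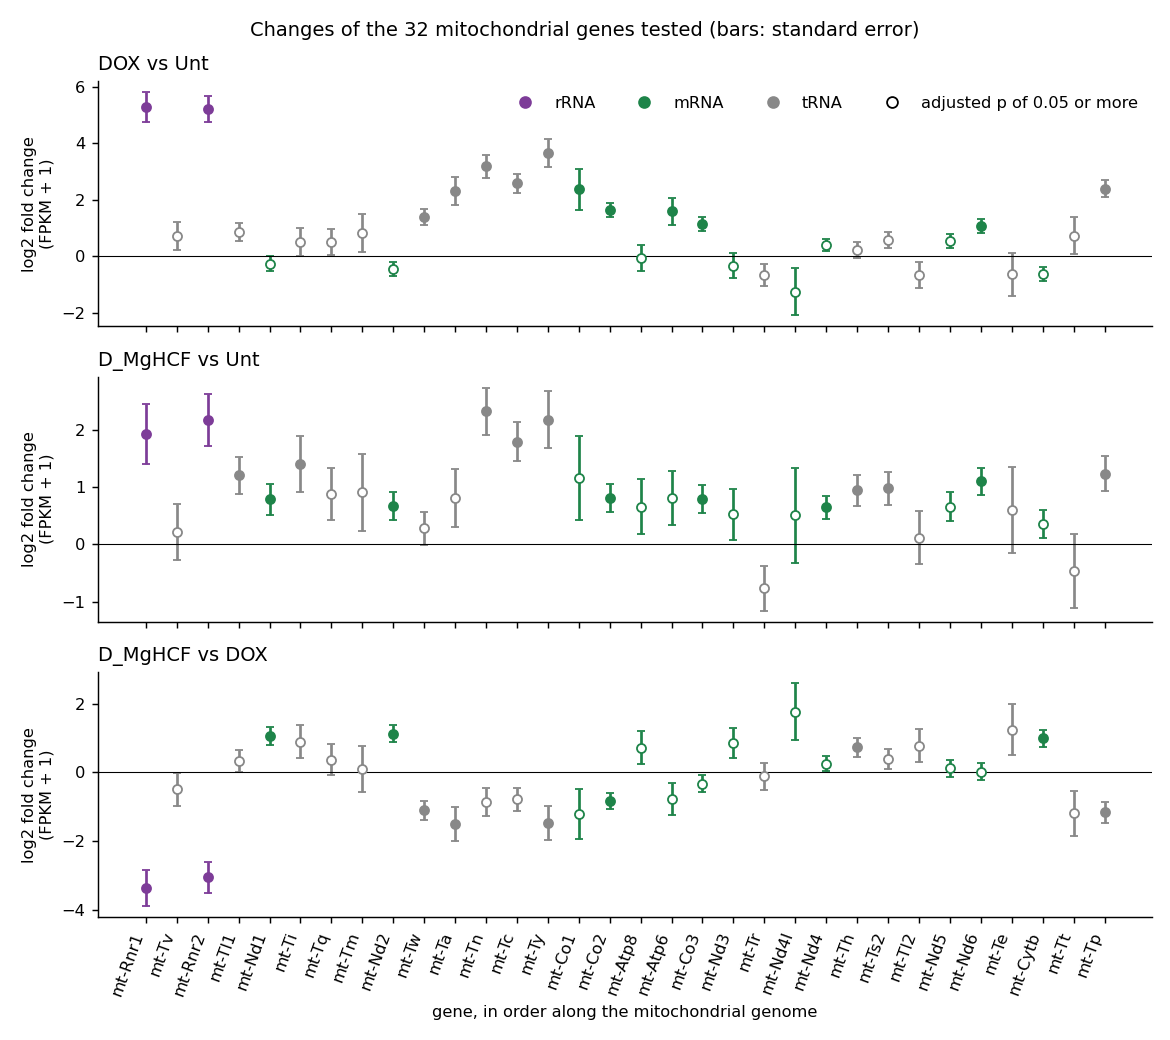
Log2 fold changes of log2(FPKM + 1) for the 32 mitochondrial genes tested in 3 comparisons, in order along the genome, with standard errors from limma. Filled points have an adjusted p under 0.05, and the rRNAs stand at 5.28 and 5.22 in DOX against Unt and at -3.36 and -3.05 in D_MgHCF against DOX, while under TPM 7 genes in DOX against Unt, 9 in D_MgHCF against DOX and 1, mt-Tl2, in D_MgHCF against Unt have the other sign.

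Under TPM, the genes with the other sign in DOX against Unt were mt-Nd4, mt-Nd5, mt-Nd6, mt-Co3, mt-Th, mt-Ts2 and mt-Tl1. In D_MgHCF against DOX they were mt-Co1, mt-Co2, mt-Co3, mt-Atp6, mt-Tn, mt-Tc, mt-Tp, mt-Tw and mt-Tr.

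The subunits of complex I, which oxidises NADH at the start of the respiratory chain, differed among themselves. For mt-Nd6, the only mRNA gene on the minus strand (MT, 13552 to 14070), the FPKM were 259, 316 and 242 in Unt and 503, 675 and 552 in DOX. Values were 459, 662 and 552 in D_DXZ, and 637, 729.9 and 421 in D_MgHCF. All Unt libraries lay below all others, and the 3 treated groups overlapped. The difference between DOX and Unt was 1.08 ± 0.24 (adjusted p = 0.00398), but it was -0.29 under TPM and -0.75 under quantile normalization, and 0.13 under summed reads. Relative to the median gene it was 1.03 in the deposited FPKM, 0.89 in TPM and 0.82 in summed reads.

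Of the heavy-strand mRNAs of complex I, none was called in DOX against Unt in the deposited FPKM. The FPKM of mt-Nd1 (MT, 2751 to 3707) were 943, 1099.9 and 1015 in Unt and 999, 879 and 687 in DOX. The levels were 949, 1318 and 1066 in D_DXZ, and 1999, 2075 and 1310.5 in D_MgHCF. The log2 fold change of DOX against Unt was -0.27 ± 0.27 (adjusted p = 0.547). The FPKM of mt-Nd2 (MT, 3914 to 4951) were 452, 516 and 461 in Unt and 429, 367 and 266 in DOX. In D_DXZ they were 418, 557 and 465, and in D_MgHCF 887, 902 and 551. Its log2 fold change was -0.45 ± 0.24 (adjusted p = 0.192). For both genes the D_MgHCF libraries lay above the Unt libraries, with no overlap. Further along the strand, mt-Nd4 (MT, 10167 to 11544) had FPKM of 357, 387 and 359 in Unt and 513, 509.8 and 428 in DOX. D_DXZ gave 454, 635 and 539, and D_MgHCF 715, 617 and 431. For mt-Nd5 (MT, 11742 to 13565) the FPKM were 489, 480.0 and 472 in Unt and 712, 758 and 633 in DOX. The D_DXZ libraries had 612, 885 and 758, and the D_MgHCF libraries 1009, 824 and 525. The Unt libraries lay below all DOX, D_DXZ and D_MgHCF libraries for both genes. In DOX against Unt, mt-Nd4 and mt-Nd5 had log2 fold changes of 0.39 (adjusted p = 0.189) and 0.54 (adjusted p = 0.122). Under TPM both were called lower, at -0.97 (adjusted p = 0.000291) and -0.83 (adjusted p = 0.00153). Under summed reads mt-Nd4 was called lower (-0.56, adjusted p = 0.026) and mt-Nd5 was not called.

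The FPKM of mt-Cytb (ENSMUSG00000064370, MT, 14145 to 15288, plus strand) were 1266, 1452 and 1239.5 in Unt and 932, 874 and 742 in DOX. Those of D_DXZ were 958, 1199.7 and 914, and those of D_MgHCF 1859, 1917 and 1344. All DOX libraries lay below all Unt libraries, yet the difference of -0.64 ± 0.24 did not pass the threshold (adjusted p = 0.0641), which it passed without the trend (adjusted p = 0.00912). Its direction was the same under TPM, summed reads and quantile scaling, at -2.00, -1.59 and -2.69. The ratio of mt-Co1 to mt-Cytb FPKM, which is free of library scaling, was between 1.97 and 2.33 in Unt and between 14.1 and 21.3 in DOX. It lay between 11.3 and 16.9 in D_DXZ and between 3.16 and 4.79 in D_MgHCF.

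When D_MgHCF was set against DOX, 3 of 13 mRNAs were called higher and 1 lower, beside 31.4% and 20.1% of all genes. Under TPM and under summed reads 10 were higher and 0 lower. Of all 25044 genes, 13504 and 12376 were higher under these scalings and 1691 and 2401 lower. In the deposited FPKM the higher mRNAs were mt-Nd2 at 1.13 ± 0.24 (adjusted p = 0.00297), mt-Nd1 at 1.06 ± 0.27 (adjusted p = 0.0079) and mt-Cytb at 0.99 ± 0.24 (adjusted p = 0.00635), each in the same direction under TPM and summed reads. The lower one, mt-Co2 at -0.83 ± 0.24 (adjusted p = 0.0162), turned to 0.37 under TPM and 0.12 under summed reads, and its adjusted p was 0.0588 without DOX replicate 1. Relative to the median gene, mt-Cytb stood 1.08, 1.22 and 1.30 higher and mt-Co1 stood at -1.12, -0.98 and -0.90 under the deposited FPKM, TPM and summed reads.

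**Figure D4:**
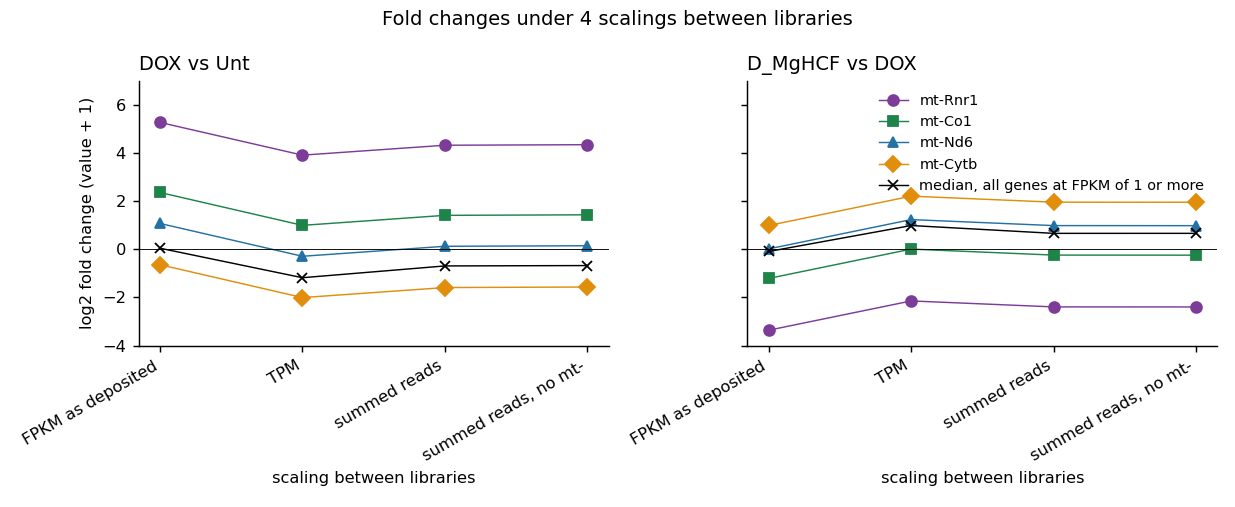
Log2 fold changes of 4 mitochondrial genes and of the median gene under 4 scalings between libraries, for DOX against Unt and D_MgHCF against DOX. In DOX against Unt mt-Rnr1 and mt-Co1 are above 0 and mt-Cytb below 0 under all 4 drawn, which are the deposited FPKM, TPM and summed reads with and without mt- genes, while mt-Nd6 turns from 1.08 to -0.29 under TPM.

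Against Unt, D_MgHCF had 6 of 13 mRNAs called higher and 0 lower, beside 24.3% and 15.7% of all genes. The 6 were mt-Nd6 at 1.10 ± 0.24 (adjusted p = 0.00506), mt-Co2, mt-Co3, mt-Nd1, mt-Nd2 and mt-Nd4, the last 5 between 0.64 and 0.81. Under TPM and summed reads 7 and 8 of the 13 were higher, beside 6652 and 7331 of the 25044 genes. All 13 log2 fold changes were above 0, from 0.36 to 1.16, in the deposited FPKM, whereas mt-Cytb was at -0.17 under quantile normalization. The call of mt-Nd6 was kept with each of the 12 libraries left out, whereas the other 5 were each lost without at least 4 libraries, and without Unt replicate 1, Unt replicate 3, D_MgHCF replicate 1 or D_MgHCF replicate 2 only 1 of the 13 was called. Against D_DXZ, mt-Cytb (0.73 ± 0.24, adjusted p = 0.0307) and mt-Nd2 (0.67 ± 0.24, adjusted p = 0.0418) were higher and 0 mRNAs lower, beside 29.4% and 19.0% of all genes. Neither was called without D_DXZ replicate 1, D_DXZ replicate 3, DOX replicate 2 or D_MgHCF replicate 2. Under TPM and summed reads 10 mRNAs were higher, beside 12801 and 11426 of the 25044 genes.

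D_DXZ had 4 of 13 mRNAs called higher than Unt and 0 lower, beside 15.9% and 18.0% of all genes. The 4 were mt-Co1, mt-Co2 (1.38 ± 0.24, adjusted p = 0.0013), mt-Nd6 (1.02 ± 0.24, adjusted p = 0.00648) and mt-Co3 (0.96 ± 0.25, adjusted p = 0.0118). Under TPM 1 mRNA was higher and 6 lower, beside 913 and 10083 of the 25044 genes. Of the 4, mt-Co1 alone kept the call under TPM and under summed reads. The differences of mt-Nd6 and mt-Co3 were -0.16 and -0.14 under TPM, and without D_DXZ replicate 2 the number higher was 2. Between D_DXZ and DOX, 0 of the 32 mitochondrial genes tested were called by limma, beside 0.0% of the 25044 genes called higher and 0.0% lower. At an unadjusted p under 0.05, 2388 of all genes and 1 mitochondrial gene, mt-Tw, passed, and voom on the recovered reads also called 0 of all genes. Without the trend, limma called 8 genes higher and 2 lower, with 0 mitochondrial genes among them. The log2 fold change of mt-Rnr1 between D_DXZ and DOX had a 95% interval of -1.32 to 1.01, that of mt-Co1 one of -1.74 to 1.53 and that of mt-Cytb one of -0.28 to 0.81.

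The ratio of mt-Nd6 reads to the reads of the 12 heavy-strand mRNAs was 1.66, 1.65 and 1.47 in Unt, 1.05, 1.24 and 1.02 in DOX, 1.14, 1.16 and 1.00 in D_DXZ and 1.53, 2.09 and 1.90 in D_MgHCF, in percent. DOX and D_DXZ lay below Unt and D_MgHCF without overlap, and the 4 groups differed in the exact permutation test (p = 0.00247, adjusted p = 0.0345). The geometric mean of DOX was 0.691 of that of Unt, and D_MgHCF was at 1.66 times DOX. Leaving out 1 library at a time, the adjusted p, again raised by the tests of pairs among the 28, ranged from 0.00727 to 0.0691. It was over 0.05 without each Unt library, DOX replicate 1, D_DXZ replicate 1 and D_MgHCF replicates 2 and 3. The percentage of mt-Nd6 reads to the reads of the heavy-strand mRNAs other than mt-Co1 was described after the values were seen. In it DOX and D_DXZ lay above D_MgHCF and Unt instead of below them, with 5.67 to 7.97% in DOX and 5.62 to 6.03% in D_DXZ. It was 4.21 to 5.02% in D_MgHCF and 2.95 to 3.49% in Unt.

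In Unt, mt-Co1 had the highest level per length of the 13 mRNAs, followed by mt-Cytb at 1319 ± 116, mt-Nd1 at 1019 ± 78.5, mt-Nd5 at 480.3 ± 8.56, mt-Nd2 at 476 ± 34.5, mt-Nd4 at 368 ± 16.8 and mt-Nd6 at 272 ± 39.0 FPKM (SD, n = 3). Of these neighbours, mt-Nd5 and mt-Nd2 did not differ beyond their spread. In each group the same number of mRNAs, 7, had a mean of at least 100 FPKM. The other 6 were far lower, with Unt means of 24.2 ± 4.02 for mt-Co2, 18.9 ± 25.1 for mt-Nd4l, 10.4 ± 0.283 for mt-Atp6, 7.99 ± 0.809 for mt-Co3, 2.44 ± 1.30 for mt-Nd3 and 1.20 ± 0.413 for mt-Atp8. Their genes lie next to each other, from mt-Co2 to mt-Nd4l (MT, 7013 to 10173), apart from tRNA genes between them.

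The levels of at least 5 of these 6 are uncertain, because nuclear genes hold near-identical copies (at least 95% identity over at least 150 bases) that can share their reads. The search covered GENCODE M21 transcripts only, so that the 0 copies found for mt-Atp8 do not show that it has none. The reads counted on such copies came to 51.7 to 77.0% of the reads of mt-Co2, 54.2 to 189% of those of mt-Atp6, 113 to 219% of those of mt-Co3, 23.3 to 792% of those of mt-Nd4l and 2178 to 27800% of those of mt-Nd3. They were at most 0.408% of the reads of mt-Co1 and 0.680% of those of mt-Nd4. A copy of mt-Nd4 was identical over 876 aligned bases. The genes mt-Rnr1, mt-Rnr2, mt-Nd1, mt-Nd6 and mt-Cytb had 0 such copies among these transcripts. How reads that match a gene and its copy equally were counted is not given. Low percentages and the addition of copies' reads therefore cannot show that a gene is unaffected. With the copies' reads added, the number of mRNAs called in DOX against Unt was again 5 higher and 0 lower, and it was 5 higher in D_DXZ against Unt and 7 higher in D_MgHCF against Unt. The genes mt-Atp8 and mt-Atp6 also share 43 bases, mt-Nd4l and mt-Nd4 share 7, and mt-Nd5 and mt-Nd6 share 14 on opposite strands. The libraries are not stated to keep strand, so that reads from a gene and from the RNA opposite to it cannot be told apart.

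Among these lower genes, mt-Co2, the second subunit of cytochrome c oxidase, had FPKM of 20.7, 28.6 and 23.2 in Unt and 91.3, 67.3 and 74.2 in DOX. Values were 52.9, 76.6 and 65.1 in D_DXZ, and 49.1, 56.3 and 28.5 in D_MgHCF. The Unt libraries lay below all DOX and D_DXZ libraries and overlapped D_MgHCF, and the difference between DOX and Unt was 1.64 ± 0.24 (adjusted p = 0.000307), a call kept under summed reads and lost under TPM. The FPKM of mt-Atp6, a subunit of ATP synthase, were 10.1, 10.7 and 10.4 in Unt and 72.9, 26.4 and 18.9 in DOX. The levels were 18.9, 32.7 and 23.3 in D_DXZ, and 21.6, 30.1 and 10.4 in D_MgHCF. The first DOX library stood apart. Its difference between DOX and Unt was 1.59 ± 0.47 (adjusted p = 0.0204) and 1.04 without DOX replicate 1 (adjusted p = 0.0576), and its adjusted p was also over 0.05 without any 1 of the Unt libraries. For mt-Co3, the third subunit of cytochrome c oxidase, it was 1.13 ± 0.25 (adjusted p = 0.00396), but -0.14 under TPM. The FPKM of mt-Co3 were 7.10, 8.68 and 8.20 in Unt and 17.1, 24.8 and 15.1 in DOX. In D_DXZ they were 12.2, 19.9 and 18.1, and in D_MgHCF 18.5, 16.4 and 10.1. Its 3 Unt libraries were below all others. The FPKM of mt-Nd4l were 47.8, 4.92 and 3.86 in Unt and 5.32, 2.62 and 3.49 in DOX. D_DXZ gave 2.71, 3.34 and 6.30, and D_MgHCF 8.49, 39.0 and 9.60. Single libraries of Unt and D_MgHCF were high. The lowest mRNAs were mt-Nd3 of complex I and mt-Atp8 of ATP synthase. The FPKM of mt-Nd3 were 1.26, 3.84 and 2.23 in Unt and 2.65, 2.91 and 0.248 in DOX. The D_DXZ libraries had 0.534, 1.75 and 1.29, and the D_MgHCF libraries 4.65, 3.61 and 3.04. The FPKM of mt-Atp8 were 0.779, 1.23 and 1.60 in Unt and 3.23, 1.15 and 0 in DOX. Those of D_DXZ were 2.13, 1.12 and 0.367, and those of D_MgHCF 1.63, 2.70 and 3.20. Unt and DOX overlapped for both genes. In the fit of the deposited FPKM, neither mt-Nd4l nor mt-Nd3 nor mt-Atp8 was called in any of the 6 comparisons. Under TPM, each of them was called higher in D_MgHCF against DOX.

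The 22 tRNA genes gave few reads, from libraries of poly(A) RNA and with reads longer than the genes. Of these genes, mt-Tf, mt-Td, mt-Tk and mt-Tg had 0 reads in all 12 libraries, where a count of 0 allows up to 3 reads in each library, and mt-Ts1 had 2 reads in 1 library only. These 5 were not tested. The other 17 were above 0 in at least 3 libraries, and mt-Tn, mt-Tc and mt-Tp together held 87.8% of all tRNA reads.

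The tRNAs with the most reads rose in DOX. The FPKM of mt-Tn were 125, 145 and 139 in Unt and 1252, 1464 and 1065 in DOX. Values were 1139, 1890.4 and 1573 in D_DXZ, and 1364, 665 and 356 in D_MgHCF. The FPKM of mt-Tc were 164, 187 and 175 in Unt and 1001.1, 1287 and 905 in DOX. The levels were 1033, 1646 and 1611 in D_DXZ, and 1009, 615 and 365 in D_MgHCF. For both, every treated library lay above the Unt libraries. The FPKM of mt-Tp were 203, 224 and 218 in Unt and 1091, 1144 and 1168 in DOX. In D_DXZ they were 790.4, 1115 and 934, and in D_MgHCF 800.0, 555 and 294. The D_MgHCF libraries lay between Unt and DOX without overlapping either. Their log2 fold changes in DOX against Unt were 3.19 ± 0.41, 2.58 ± 0.34 and 2.39 ± 0.31 (adjusted p = 0.000125, 0.000154 and 0.000129), in the same direction under TPM and summed reads.

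**Figure D5:**
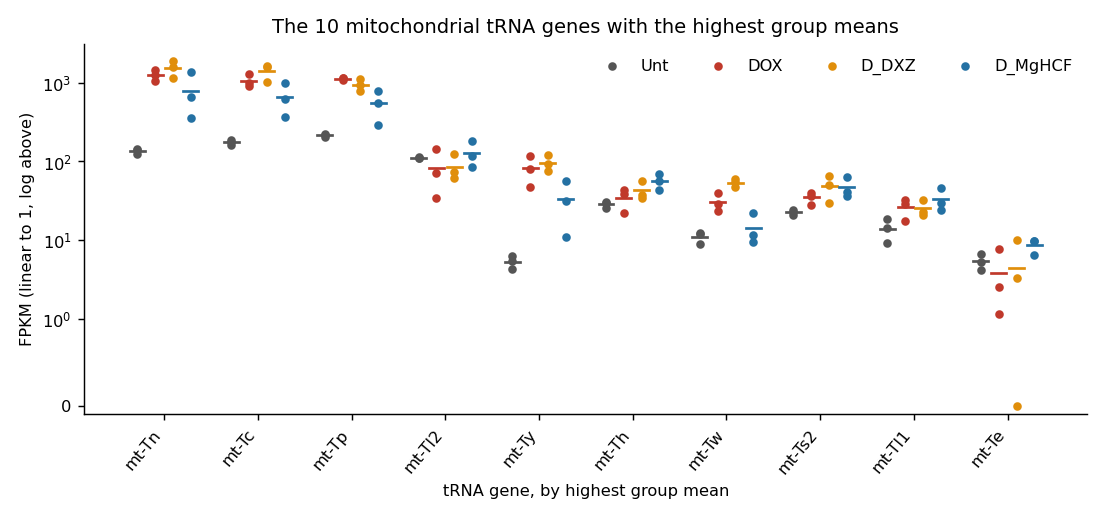
FPKM of the 10 mitochondrial tRNA genes with the highest group means in each library, on an axis that is linear up to 1 and logarithmic above. Points are libraries and lines group means, and mt-Tn lies at 125 to 145 in Unt and at 1065 to 1464 in DOX, while mt-Tl2 lies at 111 to 115 in Unt and 34.1 to 145 in DOX.

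In total, 6 of the 17 tRNA genes tested were called higher and 0 lower in DOX against Unt, beside 18.6% and 19.9% of all genes tested. Under TPM 4 were higher and 4 lower, beside 1111 and 10227 of the 25044 genes. Under summed reads 5 were higher and 1 lower, beside 2075 and 8303 genes. Apart from mt-Tn, mt-Tc and mt-Tp, the 6 were mt-Ty (tyrosine) at 3.64 ± 0.50 (adjusted p = 0.000193), mt-Ta (alanine) at 2.31 ± 0.51 (adjusted p = 0.00377) and mt-Tw (tryptophan) at 1.38 ± 0.28 (adjusted p = 0.00243), with at most 5 reads of mt-Ta and 10 of mt-Ty in any Unt library. The call of mt-Tw was lost under TPM and summed reads and that of mt-Ta under TPM. By position, mt-Tw, mt-Ta, mt-Tn, mt-Tc and mt-Ty are the 5 adjacent genes between mt-Nd2 and mt-Co1 (MT, 4950 to 5326). By strand, 5 of the 8 tRNA genes of the minus strand were called higher, with 7 of them tested, and 1 of the 14 of the plus strand, with 10 tested. These numbers were 5 and 2 in D_DXZ against Unt and 4 and 4 in D_MgHCF against Unt, all in the deposited FPKM. The plus-strand tRNAs mt-Tl2 and mt-Th, with 28 to 274 and 17 to 98 reads per library, had log2 fold changes of -0.66 ± 0.47 (adjusted p = 0.351) and 0.22 ± 0.27 (adjusted p = 0.644). Under TPM mt-Th was called lower, at -1.12 (adjusted p = 0.00775).

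In D_DXZ, 7 of the 17 tRNAs tested were called higher than in Unt and 0 lower, beside 15.9% and 18.0% of all genes tested. They were the same 6 and mt-Ts2 (serine) at 0.99 ± 0.28 (adjusted p = 0.019), which was -0.16 under TPM. Under TPM 5 were higher and 1 lower, beside 913 and 10083 of the 25044 genes. Under summed reads 6 were higher, beside 1913 genes. In D_MgHCF, 8 were called higher than in Unt and 0 lower, beside 24.3% and 15.7% of all genes. Of the 8, mt-Tn (2.32 ± 0.41), mt-Ty (2.18 ± 0.50), mt-Tc (1.79 ± 0.34) and mt-Tp (1.23 ± 0.31) kept the call with each library left out. Against DOX, D_MgHCF had 4 of the 17 tRNAs tested called lower, beside 20.1% of all genes tested. Among the 4 were mt-Tp at -1.16 ± 0.31 (adjusted p = 0.0101) and mt-Tw at -1.10 ± 0.28 (adjusted p = 0.00799), both of which turned to 0.06 under TPM and were not called under summed reads. The others were mt-Ty and mt-Ta, the latter on 3 to 5 reads per D_MgHCF library. Both lost the call without DOX replicate 2, D_MgHCF replicate 2 or D_MgHCF replicate 3, and also without DOX replicate 1 for mt-Ty or DOX replicate 3 for mt-Ta. Under TPM and summed reads 0 tRNAs were lower and 6 higher. Of the 25044 genes, 1691 and 2401 were lower under these scalings and 13504 and 12376 higher. A single tRNA, mt-Th, was called higher in the deposited FPKM, beside 31.4% of all genes (0.72 ± 0.27, adjusted p = 0.0471), a call lost without 9 of the 12 libraries in turn. Against D_DXZ, 5 were lower and 1 higher, beside 19.0% and 29.4% of all genes. Of the 5, mt-Tw at -1.92 ± 0.28 (adjusted p = 0.000307) was the only one kept with each library left out. The higher one, mt-Ti, had at most 7 reads per library. Under TPM and under summed reads the balance turned, to 1 lower and 6 higher, and of the lower ones mt-Tw alone kept its call. Of the 25044 genes, 12801 and 11426 were higher under these scalings and 1559 and 2382 lower. The ratio of tRNA to mRNA reads did not pass the exact permutation test over the 4 groups after adjustment (p = 0.00805, adjusted p = 0.0752). This adjustment, too, is raised by the tests of pairs among the 28. It lay between 0.516 and 0.575% in Unt, 0.800 and 1.03% in DOX, 1.04 and 1.17% in D_DXZ, and 0.727 and 1.13% in D_MgHCF.

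Nuclear genes for mitochondrial transcription and for RNA processing were mostly called lower in DOX than in Unt, while those for RNA stability were called in both directions. Of 10 genes for mitochondrial transcription and its termination, 7 were called lower and 0 higher in DOX against Unt, with a median log2 fold change of -0.87 beside 0.00 over all genes tested, of which 19.9% were lower. Under TPM and summed reads 10 and 9 of the list were lower, beside 10227 and 8303 of the 25044 genes. The largest differences were those of Tefm, the mitochondrial elongation factor, which fell from 7.53 ± 0.893 to 0.751 ± 0.226 FPKM (SD, n = 3; -2.29 ± 0.20, adjusted p = 1.49e-05), Tfam, the activator that also packs the mitochondrial DNA, from 12.8 ± 0.559 to 3.38 ± 0.239 (-1.66 ± 0.20, adjusted p = 7.13e-05), and Polrmt, the RNA polymerase, from 8.92 ± 1.12 to 2.48 ± 0.448 (-1.51 ± 0.23, adjusted p = 0.000346). In D_MgHCF against DOX, 4 of the 10 were higher and 2 lower, beside 31.4% and 20.1% of all genes, with Polrmt at 7.02 ± 2.41 FPKM in D_MgHCF (1.17 ± 0.23, adjusted p = 0.00163) and Tefm at 1.74 ± 0.676 (0.63 ± 0.20, adjusted p = 0.0218). Under TPM and summed reads 7 and 6 of the list were higher and 0 lower. Of the 25044 genes, 13504 and 12376 were higher under these scalings and 1691 and 2401 lower.

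Of 23 genes for the processing and modification of mitochondrial RNA, 14 were called lower and 3 higher in DOX against Unt (median -0.78), beside 19.9% and 18.6% of all genes. Under TPM and summed reads 21 and 18 were lower, beside 10227 and 8303 of the 25044 genes. The 14 included the rRNA methyltransferases Mrm3, at 9.40 ± 0.776 FPKM in Unt and 0.874 ± 0.578 in DOX (-2.51 ± 0.38, adjusted p = 0.000339), and Mrm2 (-2.02 ± 0.24, adjusted p = 6.85e-05), and Ptcd1, which acts on leucine tRNAs (-1.90 ± 0.14, adjusted p = 1.17e-05). Between D_MgHCF and DOX, 11 of the 23 were higher and 7 lower, beside 31.4% and 20.1% of all genes. Under TPM and summed reads 16 and 15 were higher, beside 13504 and 12376 of the 25044 genes, and 2 lower, beside 1691 and 2401. In the deposited FPKM Mrm3 was at 1.79 ± 0.38, Mrm2 at 1.80 ± 0.24 and Ptcd1 at 1.59 ± 0.14. Of these 3 genes, none was called in D_MgHCF against Unt (adjusted p = 0.154, 0.502 and 0.107).

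Of 12 genes for the stability, polyadenylation and decay of mitochondrial RNA, 11 were tested, and 4 were called higher and 4 lower in DOX against Unt (median -0.10), beside 18.6% and 19.9% of all genes. Under TPM and summed reads 0 and 2 were higher and 6 lower, beside 10227 and 8303 of the 25044 genes lower. Compared with DOX, D_MgHCF had 2 higher and 5 lower, beside 31.4% and 20.1% of all genes. These turned to 6 higher and 1 lower under either scaling, where 13504 and 12376 of all genes were higher. Rexo2, an exonuclease that degrades short RNA, rose from 17.1 ± 1.28 to 51.4 ± 4.99 FPKM (1.54 ± 0.11, adjusted p = 1.09e-05, and 0.22 with an adjusted p of 0.284 under TPM) and was at 9.94 ± 1.07 in D_MgHCF (-2.26 ± 0.11 against DOX, adjusted p = 2.13e-06). Ptcd2, which binds mitochondrial RNA, was lower (-1.84 ± 0.19, adjusted p = 3.35e-05), and Mtpap, the mitochondrial poly(A) polymerase, was at 5.55 ± 0.128 FPKM in Unt, 1.33 ± 0.182 in DOX (-1.49 ± 0.23, adjusted p = 0.00041) and 2.12 ± 1.01 in D_MgHCF. Between D_DXZ and DOX, 0 genes of the 3 lists were called, with 0 of all genes called. DOX, D_DXZ and D_MgHCF were each compared with the same Unt libraries, and D_MgHCF and D_DXZ with the same DOX libraries, so that these comparisons are not independent.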

How the data were processed

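RNA from H9c2 cells lysed after 6 h was measured by paired-end 150-base sequencing of poly(A) RNA, in 12 libraries of 4 groups with 3 each. The authors deposited FPKM per gene, made per the submitters' processing notes with HISAT2 2.0.5 on GRCm38 (mm10), and the counting program and annotation release are not given in the sources used here. The deposited FPKM were whole multiples of the value of 1 read per gene length for 100% of values (tolerance 0.1 reads), which gave the reads per gene and the library size behind each FPKM. That library size differs from the summed reads and so shifts every fold change between groups, and FPKM were therefore also rescaled to TPM (each library to the same sum), to summed reads with and without mt- genes, and by quantile normalization.

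Differences were tested with limma 3.58.1 (R 4.3.3) on log2(FPKM + 1), with a pseudocount of 1, a mean-variance trend and the 4 groups in 1 fit, over the 25044 genes above 0 in at least 3 libraries, of which 32 were mitochondrial. A fit without the trend was added after the values were seen. Calls had a Benjamini-Hochberg adjusted p under 0.05, where the study used an unadjusted p. A fold change on this scale understates the change of low genes. Ratios of classes were tested two-sided by exact permutation of the log2 values in Python 3.11.15 with scipy 1.17.1. They were adjusted together over 28 tests, most of them between pairs of groups. Shares have 95% Wilson intervals, and a count of 0 was read as up to 3 reads. Nuclear copies were found with BLAST 2.17.0 (identity of 95% or more over 150 or more bases), and sequences were taken from GENCODE M21 transcripts, whose coordinates matched the table for all 37 genes. The fits and exact tests were tested on simulated data.

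The members and the lists of nuclear genes were chosen with earlier results of these data known. All 13 mRNAs and 2 rRNAs were accounted for by name, tRNAs were named where called in any comparison, and of each list the 3 called genes with the largest absolute log2 fold change in DOX against Unt were named, mt-Tl2 being added after its values were seen. Replicate pairs differed beyond counting noise (chi-square per degree of freedom of at least 5.01). Replicate numbers were not taken as pairs: same-numbered libraries of different groups correlated at -0.31 to 0.31 in their deviations from the group means, with 2 of 18 pairs over 0.1.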

Additional observations from a re-analysis of the deposited data

How the results depend on the processing

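Among the values of single mitochondrial genes under an alternative, 3132 kept their direction and side of the threshold, 134 changed sign or came to 0 with no call on either side, 250 lost the call, 186 gained one and 48 changed sign with a call on either side. The rRNA results kept their calls in DOX and D_DXZ against Unt and in D_MgHCF against DOX and D_DXZ under all alternatives run, and mt-Rnr1 in D_MgHCF against Unt lost its call without Unt replicate 2, without D_MgHCF replicate 2 and with only the 2 groups in the fit. The precision is limited by 3 libraries per group and, for tRNAs, by few reads. Rescaling to TPM or summed reads also moved the calls over all 25044 genes, by the counts given above. The cause of the differences below was not tested, apart from quantile normalization, which by construction gives the top genes of all libraries the same values.

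In DOX against Unt, the number of mRNAs higher was 1 under TPM, 2 under summed reads with or without mt- genes and 1 under quantile normalization, and mRNAs lower were 7, 4, 4 and 6. It was 1 lower with a filter of FPKM of at least 1, without a filter, at an unadjusted p, with voom and with only the 2 groups in the fit. The tRNAs lower were 4 under TPM and 1 under each of the other 3 scalings. The median of the 13 mRNAs was -0.97, -0.49, -0.48 and -0.75. In D_DXZ against Unt, mRNAs higher were 7 with the FPKM filter and at an unadjusted p and 1 under each scaling, and mRNAs lower were 6, 3, 2 and 6. The tRNAs lower were 1 under TPM and quantile normalization, and the median was -0.64, -0.21, -0.19 and -0.54. In D_MgHCF against Unt, mRNAs higher were 3 without a filter and 1 with only the 2 groups, and tRNAs higher were 5 without a filter. In D_DXZ against DOX, 1 tRNA was higher at an unadjusted p.

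In D_MgHCF against DOX, mRNAs higher were 10 under TPM and summed reads with or without mt- genes, 6 under quantile normalization and 1 with only the 2 groups, and mRNAs lower were 0 under these 4 scalings and with only the 2 groups and 2 with the FPKM filter and voom. The tRNAs higher were 6, 6, 6 and 7 under the scalings and 0 without a filter, with voom, with the replicate block and with only the 2 groups. The tRNAs lower were 0, 0, 0 and 1, 2 without a filter and 1 with only the 2 groups. The median of the mRNAs was 1.47, 1.22, 1.22 and 1.58. In D_MgHCF against D_DXZ, mRNAs higher were 10, 10, 9 and 6, 4 with the FPKM filter and at an unadjusted p, and 1 without a filter and with only the 2 groups. The mRNAs lower were 2 with the FPKM filter and 1 without a filter, at an unadjusted p, with voom and with nuclear copies added. The tRNAs higher were 6, 6, 6 and 4, and 0 with a pseudocount of 0.1, without a filter, with voom and with the replicate block. The tRNAs lower were 1, 1, 1 and 2, 2 without a filter and with only the 2 groups, and 3 with the replicate block. The median was 1.14, 0.88, 0.87 and 1.35. As a block, the replicate number changed no other count of calls by over 1.5 times. For 7 of the 12 libraries, the mean correlation with other groups' libraries was highest for those of their own number. The adjusted p of the tRNA to mRNA ratio was 0.0212 with FPKM in place of reads.

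The changes of sign concerned the scalings. Under TPM, summed reads and quantile normalization, mt-Nd1 in D_DXZ against Unt was at -1.08, -0.65 and -1.69, and mt-Nd2 at -1.19, -0.76 and -1.64, with -0.73 for summed reads without mt- genes. In D_MgHCF against DOX, mt-Co2 was at 0.37, 0.12, 0.12 and 0.23 under the 4 scalings, and mt-Co3 at 0.85, 0.58 and 0.58, and at 0.85 and 0.57 against D_DXZ. Under TPM mt-Co3 was at -0.14 in both DOX and D_DXZ against Unt. In DOX against Unt, mt-Nd4 was at -0.97, -0.56, -0.54 and -1.49, mt-Nd5 at -0.83 under TPM and -1.40 under quantile normalization, and mt-Nd6 at -0.29 and -0.75. In D_DXZ against Unt, mt-Nd4 was at -0.64 and -1.08, mt-Nd5 at -0.56 and -1.10 and mt-Nd6 at -0.16 and -0.54. Among the tRNAs, mt-Th (-1.12) and mt-Ts2 (-0.75) in DOX and mt-Ts2 (-0.16) in D_DXZ against Unt and mt-Tw (0.059) and mt-Tp (0.058) in D_MgHCF against DOX changed sign under TPM. In D_MgHCF against D_DXZ, mt-Tp was at 0.16 under TPM and 0.46 under quantile normalization and mt-Ts2 at 1.02, 0.75, 0.74 and 0.72. Under quantile normalization, mt-Tn, mt-Tc and mt-Tp were at 0.71, 0.84 and 0.43 in D_MgHCF against DOX, and mt-Tn and mt-Tc at 0.24 and 0.17 against D_DXZ.

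A fit without the mean-variance trend was added after the data were seen. In it, 1 mRNA was lower in DOX against Unt, 2 were lower and 0 tRNAs higher in D_MgHCF against DOX, and 1 mRNA was lower in D_MgHCF against D_DXZ. The mRNAs concerned were mt-Cytb in DOX and mt-Co1 in D_MgHCF, beside mt-Co2, and mt-Th and, in D_MgHCF against Unt, mt-Ti lost their calls.

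For the nuclear lists, TPM and summed reads were added after the data were seen. In DOX against Unt, genes of RNA processing higher were 1 and 1, and genes of RNA stability higher 0 and 2. For D_MgHCF against DOX, transcription genes higher were 7 under TPM and lower 0 and 0, processing genes lower 2 and 2, and stability genes higher 6 and 6 and lower 1 and 1.

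With 1 library left out at a time, where a group of 2 is assumed to vary like the others, mRNAs higher in DOX against Unt were 3 to 6 and lower 0 to 1, and tRNAs lower 0 to 1. In D_DXZ against Unt mRNAs higher were 2 to 6. In D_MgHCF against Unt mRNAs higher were 1 to 7 and tRNAs higher 5 to 8. For D_MgHCF against DOX, mRNAs lower were 0 to 1, tRNAs higher 0 to 2 and tRNAs lower 2 to 6. In D_MgHCF against D_DXZ mRNAs higher were 0 to 3 and lower 0 to 1, tRNAs higher 0 to 2 and tRNAs lower 2 to 6. The adjusted p of the share of reads on mitochondrial genes was 0.0214 to 0.165, that of the mt-Nd6 ratio 0.00727 to 0.0691 and that of the tRNA to mRNA ratio 0.00727 to 0.165.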
